A study of Mus musculus with 6 samples.

Results

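Noncoding RNA was followed here over the gene desert that lies between Slc24a2 and Mllt3 on mouse chromosome 4, in left atria with raised FOG2. FOG2 is the GATA cofactor encoded by Zfpm2. Features were taken as the rows of the authors' deposited table that overlap chromosome 4 from 87.4 to 87.9 Mb (mm10), and the block from 87.534 to 87.770 Mb was to be set against its flanks. The rule found 52 of the 34518 features of the table, and all 52 lay in the block. The flanks, 134 kb toward Slc24a2 and 130 kb inside Mllt3, held 0 listed features. The block was chosen by its calls, that is by the adjusted p and the sign of the log2 fold change of its features in this same comparison. The fold changes and calls below are therefore a description of what was chosen, not a test of it.

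Left atria came from adult mice of the outbred CD1 stock. The FOG2_OE group, with FOG2 overexpression, and the wild-type group (WT) had 3 libraries each. The labels call the animals DTG and NTG, do not give the promoter that drove FOG2, and state that both groups were kept for 1 week without doxycycline. Ribosomal RNA and polyadenylated RNA had been depleted, so that mostly transcripts without a poly(A) tail were left. The kit does not mark strand, and strands below are those listed in the table. The 6 sample columns of the table hold fitted values of the authors' model, not counts. Within a group they differ only by library size, so they carry no spread between replicates. Each error given below is a standard error of the log2 fold change that was solved from the authors' likelihood ratio and is called implied. The labels do not say whether the libraries of a group came from separate mice, so the authors' p-values measure only the spread between these libraries.

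Mllt3 encodes AF9, a YEATS-domain reader of acylated histones that brings the histone methyltransferase Dot1l and the super elongation complex to chromatin. Slc24a2 encodes a potassium-dependent sodium/calcium exchanger known best from retinal cones and brain. Both genes are annotated on the minus strand. RNA polymerase II on Mllt3 therefore runs toward the block, and the block begins where the gene ends. Transcription can continue past the end of a gene, and gene deserts can also hold long noncoding RNAs and transcribed enhancers of their own.

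In GENCODE M21, which uses the same build, Mllt3 covers chr4:87769925-88033364 and Slc24a2 chr4:86983124-87230477. The 539 kb between the genes are annotated as intergenic apart from a lincRNA, a miRNA and a pseudogene. The block ended 120 bases short of the end of Mllt3 and lay 304 kb from the start of Slc24a2. None of the 52 features overlapped a GENCODE gene. RefSeq (GRCm38.p6) places a pair of long noncoding RNAs in the block. Gm34180 covers chr4:87597813-87668521, 70.7 kb whose start lies 101 kb past the end of Mllt3, and 7 features lay within it. LOC115489933 covers chr4:87565858-87570698, and 0 features overlapped it. All 52 features were listed on the minus strand, the strand of Mllt3, against 49.0% of all features of the table.

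A RefSeq start site of Gm34180 lies inside the block, and those of Mllt3 and Slc24a2 lie on either side of it. A promoter window of each gene (GRCm38.p6, 250 bases before to 50 after the start, all on the minus strand) is shown because FOG2 acts through GATA factors. Mllt3 and Slc24a2 have 2 windows each, of which 1 is shown. The windows are chr4:87668472-87668771 for Gm34180, chr4:88033358-88033657 for Mllt3 and chr4:87230491-87230790 for Slc24a2. Capitals mark GATA motifs (AGATAA or AGATAG) and the T-box motif AGGTGT, searched on both strands, and none of these overlapped another.
Gm34180: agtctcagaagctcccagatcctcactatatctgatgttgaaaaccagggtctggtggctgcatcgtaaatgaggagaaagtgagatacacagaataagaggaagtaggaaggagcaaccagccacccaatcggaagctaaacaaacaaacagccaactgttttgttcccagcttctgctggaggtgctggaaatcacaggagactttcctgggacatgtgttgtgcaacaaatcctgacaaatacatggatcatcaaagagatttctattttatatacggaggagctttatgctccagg
Mllt3: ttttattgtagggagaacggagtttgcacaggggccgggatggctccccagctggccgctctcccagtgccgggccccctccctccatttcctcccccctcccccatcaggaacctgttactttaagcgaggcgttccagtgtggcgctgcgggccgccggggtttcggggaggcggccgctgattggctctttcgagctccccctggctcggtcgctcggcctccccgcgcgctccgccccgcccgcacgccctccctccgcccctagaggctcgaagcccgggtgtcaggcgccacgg
Slc24a2: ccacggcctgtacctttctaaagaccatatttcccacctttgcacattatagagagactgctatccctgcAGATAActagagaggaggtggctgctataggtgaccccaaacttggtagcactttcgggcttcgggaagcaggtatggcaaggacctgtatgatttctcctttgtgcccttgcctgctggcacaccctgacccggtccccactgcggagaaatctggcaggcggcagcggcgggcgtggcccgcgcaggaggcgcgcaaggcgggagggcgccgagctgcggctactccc
The Slc24a2 window shown held 1 motif, AGATAA at bases 71 to 76, and the Gm34180 and Mllt3 windows shown held 0. The window of LOC115489933, which is not shown, also held 0. Of the 32851 promoter windows in the table, 18.6% held AGATAA or AGATAG and 13.7% held AGGTGT. The Mllt3 window was 70.3% G or C and that of Gm34180 44.7%, with a median of 52.7% over all windows. These letters describe the windows only.

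All 52 features had a log2 fold change below 0 in the authors' deposited table, and 39 were called lower (adjusted p under 0.05, likelihood ratio test with Benjamini-Hochberg adjustment over all features). Over all features of the table, 4.65% were called lower and 1.16% higher, and 0 features of the block were called higher. The median log2 fold change of the block was -3.19, and its middle 50% of features lay between -3.71 and -2.70, while the median of all features was -0.21. Levels are given as fitted counts scaled to the effective library size (CPM). The 52 features together came to 91.3 CPM in WT and 16.6 CPM in FOG2_OE, a 5.51-fold lower sum. In bulk tissue, fewer cells that make these transcripts and less RNA per cell cannot be told apart. With p taken from an F distribution (10 residual degrees of freedom) in place of chi-square, 18 of the 52 features were called lower, against 1.07% of all features. Among features with a mean of at least 10 fitted counts, 18 of 18 were called lower, against 6.91% of all such features. That mean is over both groups and rests largely on WT in the block. The 18 of 18 is therefore a description and no added support. Over the 52 features the count was 28 at an adjusted p under 0.01 (2.69% of all features) and 35 with the median of all features centred at 0 (3.47%).

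**Figure D1:**
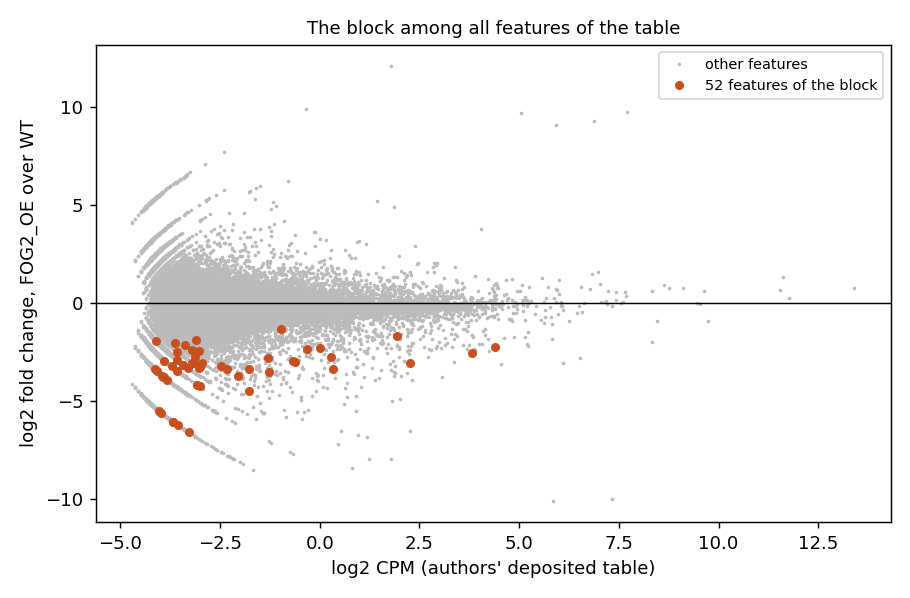
Log2 fold change of FOG2_OE over WT (vertical) against log2 CPM (horizontal), both from the authors' deposited table, with the 52 features of the block in orange and all other features in grey. The block runs from scarce to abundant features and all 52 points lie below 0, between -6.61 and -1.33.

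The level was concentrated next to Mllt3. MSTRG.59159 (chr4:87732226-87765096) and MSTRG.59158 (chr4:87706801-87731898), long features of 32871 and 25098 bases, made up 64.9% of the summed level of the block in WT and 68.9% in FOG2_OE. The fitted counts of MSTRG.59159 were 578, 526 and 616 in FOG2_OE replicates 1 to 3 and 2497, 2750 and 2885 in WT replicates 1 to 3. Every WT value was above every FOG2_OE value, as the fitted values fix 1 level per group. Scaled to the libraries the WT level was 35.1 CPM and that of FOG2_OE 7.26 CPM, and in the authors' deposited table the log2 fold change was -2.27 (implied SE 0.25). By its WT level MSTRG.59159 ranked 83rd of the 34518 features. MSTRG.59158 had fitted counts of 330, 300 and 351 in FOG2_OE and 1717, 1891 and 1984 in WT, or 4.14 and 24.1 CPM. In the authors' deposited table its log2 fold change was -2.54 (implied SE 0.27), and the difference from MSTRG.59159 next to it was not tested.

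Shorter features lay between these and Mllt3 itself, and they differed least between the groups. MSTRG.59163, 277 bases from position 87769528 on, whose edge is 120 bases from the annotated end of Mllt3, had fitted counts of 22.1, 20.1 and 23.6 in FOG2_OE and 49.99, 55.1 and 57.8 in WT. Its log2 fold change was -1.33 (implied SE 0.43), the nearest to 0 of the 52. MSTRG.59160 (chr4:87766029-87769274) had fitted counts of 141, 128 and 150 in FOG2_OE and 412, 454 and 477 in WT, and a log2 fold change of -1.71 (implied SE 0.35). These values come from the authors' deposited table, as do all log2 fold changes below. Per kilobase of their length these were also the strongest features of the block: MSTRG.59163 stood at 2.54 CPM per kb in WT and 1.004 in FOG2_OE, and MSTRG.59160 at 1.79 and 0.546. Since Mllt3 is annotated on the same strand up to 120 bases away, reads of an Mllt3 transcript that runs past the annotated end cannot be told apart from those of a separate transcript here.

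The long features farther from Mllt3 stood lower per kilobase. In WT the level was 1.07 CPM per kb at MSTRG.59159, 0.962 at MSTRG.59158 and 0.745 at MSTRG.59149 (chr4:87687943-87699495), 70.4 kb from the gene. In FOG2_OE the same features stood at 0.221, 0.165 and 0.0885 CPM per kb. MSTRG.59149 was the third most abundant feature, with fitted counts of 81.4, 74.0 and 86.7 in FOG2_OE and 612, 674 and 707 in WT. Its log2 fold change was -3.07 (implied SE 0.34), against -1.33 (implied SE 0.43) at MSTRG.59163. The features share the same libraries, and this difference was not tested. The order was not even: MSTRG.59151 and MSTRG.59150, nearer to Mllt3 than MSTRG.59149, stood at 0.659 and 0.578 CPM per kb in WT, below it, while MSTRG.59155 and MSTRG.59152 inside Gm34180, 130 and 171 kb away, stood above it at 0.856 and 0.782. The median level per kilobase in WT was 0.604 CPM between Mllt3 and Gm34180, 0.650 within Gm34180 and 0.480 beyond it, and in FOG2_OE 0.0998, 0.0508 and 0.0444. Next to MSTRG.59149 on its far side from Mllt3, MSTRG.59148 (chr4:87683140-87687331) stood at 0.543 CPM per kb in WT and 0.0530 in FOG2_OE (log2 fold change -3.35, implied SE 0.51).

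**Figure D2:**
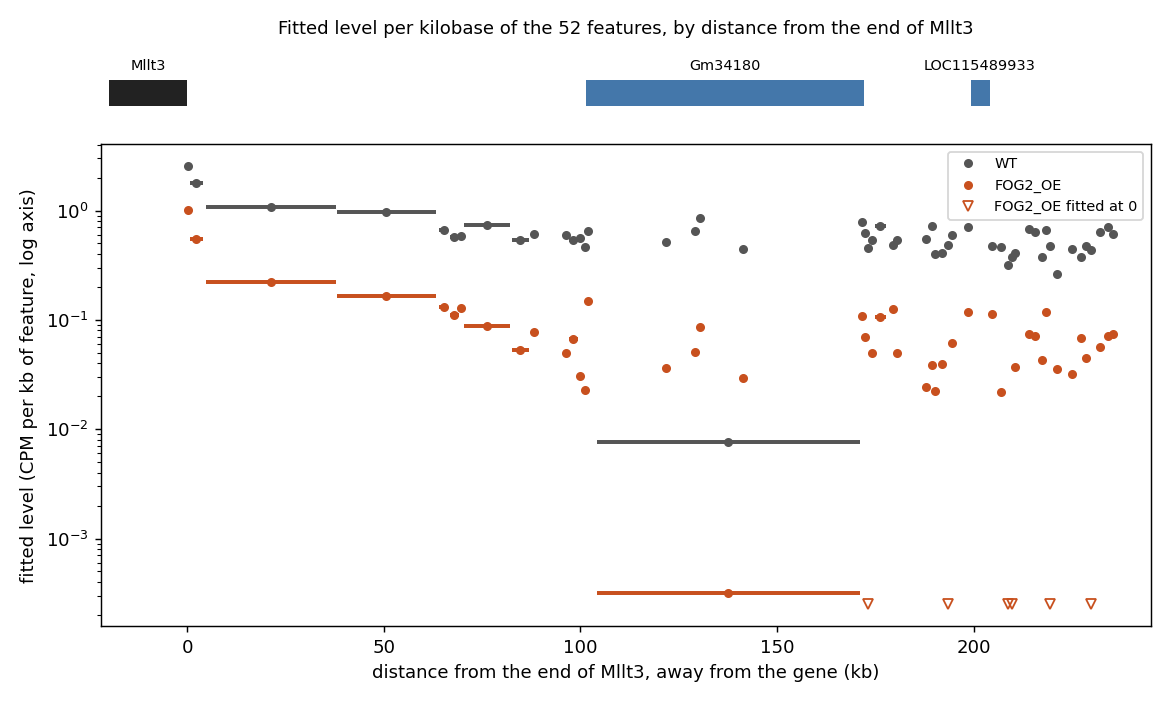
Fitted level in CPM per kb of feature length (vertical, log axis) against distance from the end of Mllt3 in kb, for WT (grey) and FOG2_OE (orange); bars span each feature, points mark its middle, and the strip on top places Mllt3 and the RefSeq genes Gm34180 and LOC115489933. WT goes from 2.54 CPM per kb beside Mllt3 to 0.745 at 70.4 kb, FOG2_OE from 1.004 to 0.0885, and the long low bar is MSTRG.59153, whose length counts its whole genomic span; triangles at the foot mark the 6 features fitted at 0 in FOG2_OE.

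The other 5 of the 10 most abundant features lay on either side of MSTRG.59149 and beyond Gm34180. MSTRG.59151 (chr4:87703502-87705977) and MSTRG.59150 (chr4:87700942-87703184), just beyond MSTRG.59158, stood at 1.63 and 1.30 CPM in WT and had log2 fold changes of -2.32 and -2.37. MSTRG.59146 (chr4:87680896-87682637) and MSTRG.59145 (chr4:87670673-87672766), 87.3 and 97.2 kb from Mllt3, stood at 1.07 and 1.12 CPM in WT and had log2 fold changes of -2.98 and -2.99. The implied SE of these 4 features lay between 0.42 and 0.46. MSTRG.59138 (chr4:87592209-87595085), on the far side of Gm34180, stood above its neighbours at 2.07 CPM (WT) and 0.307 CPM (FOG2_OE). Its log2 fold change of -2.75 (implied SE 0.41) lay between those of MSTRG.59158 and MSTRG.59149.

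The 15 features with a mean of at least 20 fitted counts per library were all called lower. The share of all features called lower above that mean was not computed. That mean is over both groups and rests largely on WT. Over these 15 features Spearman's rho between distance from Mllt3 and log2 fold change was -0.73. For distance and level per kilobase rho was -0.66 in WT and -0.78 in FOG2_OE. Over the 46 features above 0 in both groups the rho with log2 fold change was -0.20, and with level per kilobase -0.39 in WT and -0.37 in FOG2_OE. These are descriptions: the points share the 6 libraries, neighbours may be pieces of 1 transcript, and distance went with shorter length (rho -0.38 over the 46 features, -0.20 over the 15). Between WT level and log2 fold change rho was 0.43 over the 15 features and 0.22 over the 46.

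**Figure D3:**
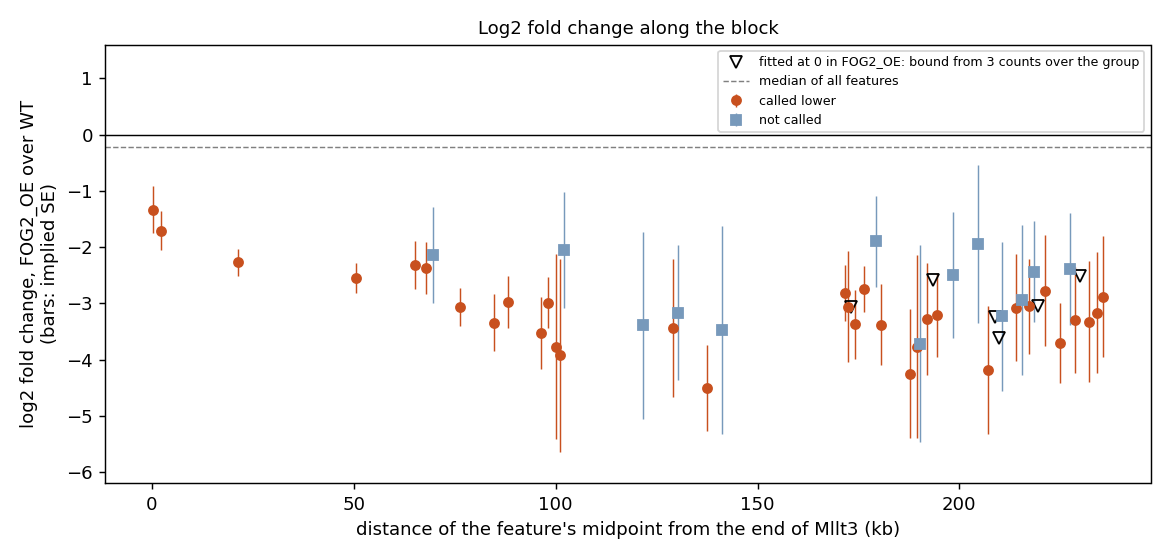
Log2 fold change of FOG2_OE over WT (vertical, bars give the implied SE) against distance of each feature's middle from the end of Mllt3 in kb, for features called lower (circles) and not called (squares). Values run from -1.33 beside Mllt3 to -4.50 at MSTRG.59153, and implied SEs over the block run from 0.25 to 1.85. Triangles place the 6 features fitted at 0 in FOG2_OE at a floor of 3 counts over that group.

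The start and end of Gm34180 divide the block into 3 stretches. Over all features of the table, 4.65% were called lower. Between Mllt3 and Gm34180, 14 features covered 86.7% of 101 kb and 13 were called lower. Their summed level was 82.8 CPM in WT and 15.6 CPM in FOG2_OE, 5.29-fold lower, and their median length was 2168.5 bases. Within Gm34180, 7 features summed to 1.62 CPM in WT and 0.164 CPM in FOG2_OE, 9.90-fold lower, and 3 were called. Beyond Gm34180, toward Slc24a2, 31 short features with a median length of 253 bases covered 20.3% of 63.4 kb, and 23 were called lower. They summed to 6.89 CPM in WT and 0.754 CPM in FOG2_OE, 9.13-fold lower. Over the 3 libraries of a group, the features within Gm34180 held 376 fitted counts in WT and 38.9 in FOG2_OE, and those beyond it 1595 and 179, of which MSTRG.59138 alone held 480 and 72.8. The median feature of these stretches held 4.497 and 6.42 fitted counts per library.

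**Figure D4:**
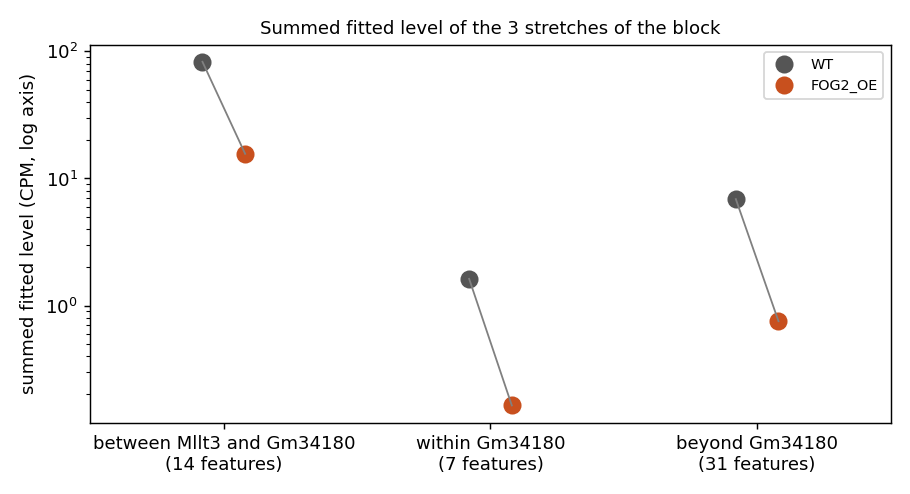
Summed fitted level in CPM (vertical, log axis) of the features between Mllt3 and Gm34180, within Gm34180 and beyond it, in WT (grey) and FOG2_OE (orange); each point is a group sum with no replicate error. The stretch beside Mllt3 goes from 82.8 to 15.6 CPM, and the other stretches go from 1.62 to 0.164 and from 6.89 to 0.754 CPM.

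MSTRG.59153 (chr4:87598929-87665819) spans 66891 bases and lies within Gm34180, covering most of it. Its fitted counts were 1.68, 1.53 and 1.79 in FOG2_OE and 36.4, 40.1 and 42.1 in WT, or 0.0211 and 0.512 CPM. The log2 fold change of -4.50 (implied SE 0.77) was the furthest below 0 of the features with at least 20 fitted counts. Its level per kilobase of span, 0.00766 CPM in WT, was the lowest of the block. The table does not give its exons, so whether it is a spliced transcript of Gm34180 was not tested. Shorter features, MSTRG.59154 to MSTRG.59157, lay inside its span on the same listed strand, and of these 4 only MSTRG.59156 was called. At its downstream edge, MSTRG.59152 (chr4:87597930-87598782) stood at 0.667 CPM in WT and 0.0931 CPM in FOG2_OE (log2 fold change -2.82, implied SE 0.50). MSTRG.59141 (chr4:87667866-87668004), the feature nearest to the annotated start of Gm34180 inside it, was not called (log2 fold change -2.06, implied SE 1.03).

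Beyond Gm34180, 6 features were fitted at 0 in FOG2_OE: MSTRG.59109, MSTRG.59113, MSTRG.59121, MSTRG.59125, MSTRG.59127 and MSTRG.59137. All 6 were called lower, which is a description only, since a feature at 0 in FOG2_OE cannot be higher there. The most abundant, MSTRG.59121 (chr4:87559952-87560359), had fitted counts of 11.0, 12.1 and 12.7 in WT. With its 0 replaced by a floor of 3 counts over the FOG2_OE group, it was 12.2-fold lower. This floor leaves out counting error in WT and spread between libraries, so the true fold can be smaller. By the same floor MSTRG.59125 was 9.50-fold lower and MSTRG.59137 8.39-fold lower. The deposited log2 fold changes of the 6 (-6.61 to -5.54) are no bounds. With these features at the floor the median of the block was -3.07.

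At the edge toward Slc24a2 the features were faint. MSTRG.59106, MSTRG.59107 and MSTRG.59108 held fitted sums of 3.02, 2.95 and 2.98 counts over the FOG2_OE group and 24.2, 28.9 and 32.5 over WT. The WT level was 8.20 times that of FOG2_OE at MSTRG.59106 (95% exact interval 2.48 to 42.4, which covers counting error only). It was 10.01 times at MSTRG.59107 (3.06 to 50.7) and 11.2 times at MSTRG.59108 (3.53 to 57.3). In all, 16 features had 1 to 3 counts over the FOG2_OE group. The 5 with 3 counts had upper bounds of 22.6 to 57.3, the 5 with 2 counts of 77.6 to 192, and the 6 with 1 count of 605 to 848.

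The 13 features that were not called were all scarce, with means of 2.49 to 7.63 fitted counts per library. Their log2 fold changes lay between -3.72 and -1.90, on the same side as those of the called features, with implied SEs of 0.81 to 1.85. The called features had a median of 7.72 fitted counts per library and those not called 4.32. Just inside the threshold, MSTRG.59116 had an adjusted p of 0.0487 and a log2 fold change of -2.78 as deposited by the authors. Just outside it, MSTRG.59155 had an adjusted p of 0.0579 and a log2 fold change of -3.17 there.

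Outside the block, neither Mllt3, over 263 kb, nor Slc24a2, over 247 kb, overlapped a listed feature. Whether the mRNA of either gene differed was not measured by this table. The nearest listed features were far away on both sides, and none of the 6 was called. Toward Slc24a2 they were MSTRG.59086, MSTRG.59088 and MSTRG.59087, 910, 955.5 and 956 kb from the block, at 0.0958, 0.143 and 0.0569 CPM in WT. Their log2 fold changes were -0.47, -0.38 and -2.03 (implied SE 0.85, 0.60 and 1.22). Past Mllt3, MSTRG.59214 and MSTRG.59220 overlapped Hacd4, 646 and 660 kb away, with log2 fold changes of 0.79 and -1.39 (implied SE 0.58 and 1.23). The only abundant one, MSTRG.59161, 830 kb away, stood at 1.91 CPM in WT and 2.08 CPM in FOG2_OE (log2 fold change 0.12, implied SE 0.36).

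Features of related genes were counted beside the block. Overlap with a coding gene, or for intergenic features the nearest coding start within 100 kb, linked a feature to a gene; the block itself is too far from any coding gene's start to be linked. Of 20 genes for AF9 and its partners in transcription elongation and Dot1l complexes, 12 had 33 features, of which 0 were called higher and 1 lower. That one was MSTRG.1590 at Aff3, a subunit gene of the elongation complexes, at 0 in FOG2_OE and 0.0509 CPM in WT. The lower call is 1 of 33 features, against 4.65% of all features called lower. With unadjusted p under 0.05, 1 feature was higher and 6 were lower, against 4.52% and 12.5% of all features. The list had a median log2 fold change of -0.40. Hexim1, an inhibitor of the elongation kinase Cdk9, had 1 feature at 6.19 CPM in WT and 4.24 CPM in FOG2_OE (log2 fold change -0.55, not called). Of 9 sodium/calcium exchanger genes, 5 had 28 features, with 0 called by the authors' likelihood ratio test (by unadjusted p under 0.05, 2 higher and 0 lower; median -0.01). Among them were 11 at Slc8a1, the main cardiac exchanger, which summed to 16.6 CPM in WT and 16.2 CPM in FOG2_OE.

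Among 17 coding genes around the block on chromosome 4, 7 had 12 features, with 3 called higher and 0 lower, against 1.16% and 4.65% of all features. All 3 belonged to Adamtsl1, which encodes a secreted matrix protein. MSTRG.59203 (chr4:85810025-85832664) stood at 27.9 CPM in WT and 67.8 CPM in FOG2_OE (log2 fold change 1.28, implied SE 0.35). MSTRG.59201 and MSTRG.59202 had log2 fold changes of 1.205 and 1.402. Lower calls on chromosome 4 numbered 105 of 2192 features, 39 of them in the block.

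The labels were checked on Zfpm2, whose feature MSTRG.29831 stood at 0.484 CPM in WT and 417 CPM in FOG2_OE. Effective library sizes ran from 71117773 to 84832468 reads. Features linked to atrial muscle genes were present: Myl7, Sln, Nppa and Myl4 had 17 features, and Bmp10 had none. They summed to 26.7 CPM in WT and 12.1 CPM in FOG2_OE. Of the 17, 6 were called lower (3 at Myl7, 3 at Sln) and 0 higher, against 4.65% and 1.16% of all features. With unadjusted p under 0.05, 12 were lower and 0 higher, against 12.5% and 4.52% of all features. At Myl4 and Nppa none was called, and the sums were 2.60 and 1.11 CPM in WT and 2.94 and 1.30 CPM in FOG2_OE. Lists for ventricular muscle, fibroblasts, endothelium, macrophages, neurons with Schwann cells and fat held 76 features, of which 0 were called by the authors' likelihood ratio test. By unadjusted p under 0.05, 6 of the 76 were higher and 5 lower, against 4.52% and 12.5% of all features. All 6 of the higher ones were among the 29 fibroblast features, whose median log2 fold change was 0.43 (Col1a1 1.48 over 2 features, Col3a1 0.82 over 14), while the medians of Dcn, Pdgfra and Tcf21 were -0.19, -0.23 and -0.46. The 5 lower ones were in the lists for endothelium (2), fat (2) and neurons with Schwann cells (1). Each of these lists summed to 0.135 to 13.6 CPM in WT and 0.103 to 13.6 CPM in FOG2_OE. The part of cell makeup in the lower level of the block was not tested.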

How the data were processed

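Per the submitters' processing notes, STAR, HTSeq 0.6.0, edgeR and deepTools were used on the mm10 build; their roles are not given in the sources used here. The table deposited by the authors held log2 fold changes and log2 CPM, a likelihood ratio score, p-values with adjusted p-values, and 6 sample columns of fitted values (a score, not counts). The columns of a group differed only by a constant factor. The deposited comparison was therefore the main result, and no replicate could be left out. Starts in the table count from 0 and are printed counting from 1.

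From these values, effective library sizes were derived from 718 features above 300 fitted counts in every library, and CPM from them. The negative binomial dispersion that gives each deposited likelihood ratio was solved (tested on simulated data) and gave the implied SE. Ratios under 0.1 took the dispersion of features of like abundance. A group at 0 was set to 3 counts as a floor. Alternatives changed the scale, the reference distribution, the threshold, the filter on low values and the merging of features. Named features were the 10 most abundant, those at the edges and at 0, and those nearest outside. Motifs in the block itself were not counted, since no genome sequence was used here. The features and gene lists were chosen with earlier results of these data known. Python 3.11.15, numpy 2.4.6, scipy 1.17.1, pandas 2.3.3 and matplotlib 3.10.9 were used.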

Additional observations from a re-analysis of the deposited data

How the results depend on the processing

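The 39 lower calls of the block became 18 with p from an F distribution (10 residual degrees of freedom) and 18 among features with a mean of at least 10 fitted counts per library, a filter that removed 34 of the 52. The filter takes the mean over both groups, so features of the block passed it largely by their WT level. They became 35 after centring, 28 at an adjusted p under 0.01, and 38 of 48 loci after overlapping features were merged. Beside Mllt3, MSTRG.59163 was not called after centring, with the F distribution or at an adjusted p under 0.01. MSTRG.59160 was not called with the F distribution. All 52 features stayed below 0 after centring. The log2 ratio of the summed level, -2.46, ranged from -2.59 without the most abundant feature to -2.25 after centring, and the median log2 fold change from -3.19 to -2.98. The flanks held no feature, so no alternative gives them a value. Leaving out replicates was not run, since the sample columns hold fitted values. No paired analysis was possible because those columns carry no spread between libraries. Depth limits the 37 features under 20 fitted counts, whose median implied SE was 1.08.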

Other observations

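Lower calls joined at gaps of up to 100 kb made 15 clusters of at least 15 features, and the block beside Mllt3 ranked 4th of them by lower calls and 4th by summed WT level. In 11 of the 15, every listed feature was on 1 strand. The end of the nearest coding gene that was upstream on that strand lay 0.12 kb away for Mllt3, 1.04 kb for the cluster beside Gcnt1 on chromosome 19 and 16.9 kb for that beside Kcna4 on chromosome 2, and farther for the other clusters. The cluster beside Gcnt1 was 4.26-fold lower in sum and that beside Kcna4 4.36-fold lower. Farther from a gene end, the fold ran from 2.41 to 182. It was 4.46 for the cluster 305 kb from Galnt13 and 5.16 for that 314 kb from Slc9a9. Of the listed features of these clusters, 57.1% and 78.3% were on the main strand, by which the upstream gene was taken. These clusters were chosen by their calls, and no difference between them was tested.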
